A study of Mus musculus with 2 samples.

Results

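Oxidative phosphorylation is carried out by 5 protein complexes of the inner mitochondrial membrane, and the genes described here are those whose mouse symbols name a subunit of one of them. They were taken by symbol: Nduf genes of the A, B, C, S and V series (complex I), the 4 Sdh genes (complex II), Uqcr genes (complex III), Cox4 to Cox8 genes (complex IV), Atp5 genes (complex V), and the protein-coding mt- genes carried by mitochondrial DNA. This gave 107 of the 32285 genes in the deposited tables. Of these, 86 were nuclear-coded subunits, 37 of complex I, 4 of complex II, 8 of complex III, 20 of complex IV and 17 of complex V. Another 13 were mitochondria-coded, 7 in complex I, 1 in complex III, 3 in complex IV and 2 in complex V. The remaining 8, Ndufaf1 to Ndufaf8, encode assembly factors of complex I that share the prefix, and they were kept apart. Ndufa4 and Ndufa4l2 were counted with complex IV.

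Complexes I and II pass electrons from NADH and succinate to ubiquinone, complex III hands them to cytochrome c, complex IV reduces oxygen, and complex V makes ATP from the proton gradient that complexes I, III and IV build. Complex II is coded wholly in the nucleus, whereas the other complexes combine nuclear-coded and mitochondria-coded subunits, so that both genomes have to be read out for assembly. Several subunits of complex IV exist as paired isoforms, with forms typical of heart and skeletal muscle (Cox6a2, Cox7a1, Cox8b) and forms that respond to low oxygen (Cox4i2, Ndufa4l2).

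The cells came from mouse embryos at E13.5, from the part of the body above the liver, and were sorted for eYFP. Both groups were of mixed C57BL/6J and ICR background and carried Isl1-Cre and R26R-eYFP, so that eYFP marked cells with a history of Isl1-Cre activity. The control group was Isl1-Cre;R26R-eYFP, and the mutant group also carried the Cre-activated allele Pik3caH1047R, an activating form of the catalytic subunit of PI3-kinase. The labels name the tissue as pharyngeal arch, and the lineage marked by Isl1-Cre is not limited to 1 cell type, as the classes below show. Each group was 1 library made from 3 pooled embryos, so values have no replicates and the genotypes could not be compared by a test. Intervals are exact 95% intervals and cover counting error only. Each captured molecule was counted once at its 5′ end, so levels were not divided by gene length. They are UMIs (captured molecules) of a gene per 1000000 UMIs of the cell class (CPM), or the share of all UMIs for a sum of genes, and the libraries are compared as log2 of mutant over control. Genes were counted as higher or lower past a log2 ratio of 0.32 (a ratio of 5 to 4) or past 1.5-fold, by size alone.

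With over 2000 but under 9000 genes per barcode and mt- UMIs under 10%, 2783 control barcodes (63153191 UMIs, median 20412) and 3489 mutant barcodes (69717583 UMIs, median 16839) were kept. Clusters made without these genes were named from marker genes as endothelial-like (155 control and 739 mutant barcodes), cardiomyocyte-like (54 and 184), branchial muscle-like (886 and 841), mesenchyme-like (884 and 593), epithelium-like (212 and 305), neuron-like (193 and 470) and mesothelium-like (70 and 67). All 15 endothelial markers were present in the endothelial-like class of both libraries, with a summed level of 6930 CPM in the control and 6729 CPM in the mutant. The libraries differed in sex: 95.5% of control barcodes and 33.6% of mutant barcodes had Xist and no Y-linked UMI. The deposited libraries shared 28 barcode sequences, and 12 of them were among the barcodes kept. Because a share is relative to all RNA of the class, fewer molecules of a gene and more RNA of other genes cannot be told apart.

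The first question was how much of each class's RNA these genes made up. Nuclear-coded subunits took 7.84% of UMIs in control cardiomyocyte-like cells and 8.09% in the mutant ones, and between 2.23% and 3.09% in the other 6 classes of either library. Branchial muscle-like cells, the skeletal muscle precursors, came next, with 3.09% in the control and 3.05% in the mutant. The classes below them were close together and changed places between libraries: mesothelium-like cells followed closely in the control (3.08%) and were last in the mutant (2.25%), whereas neuron-like cells were last in the control (2.23%) and just below branchial muscle-like cells in the mutant (2.56%). The mitochondria-coded subunits followed another order. They were highest in control endothelial-like cells (2.19%) and lowest in cardiomyocyte-like cells of both libraries (0.770% and 0.329%).

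**Figure D1:**
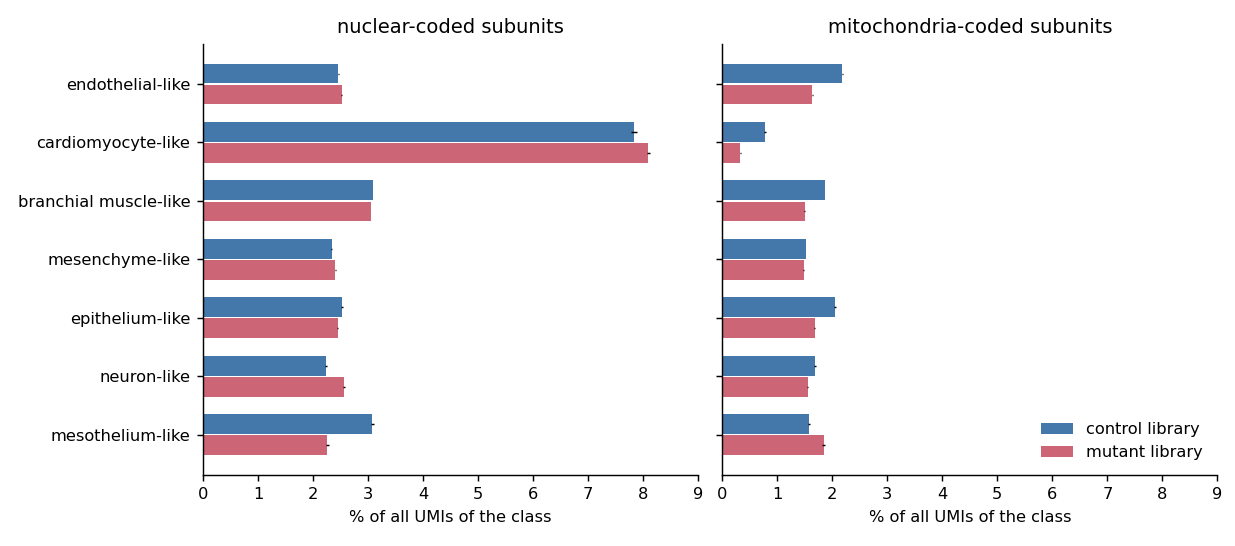
Share of all UMIs (%, horizontal axis) taken by nuclear-coded and by mitochondria-coded subunits in each of 7 cell classes, for the control and the mutant library. Cardiomyocyte-like cells stand at 7.84% and 8.09% for nuclear-coded subunits and at 0.770% and 0.329% for mitochondria-coded ones, the highest and lowest values of the 7 classes.

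Nearly every nuclear-coded subunit contributed to the high level in cardiomyocyte-like cells. Against all other cells of the same library, 82 of 84 subunits with enough UMIs were higher past 1.5-fold in the control, where 15.1% of all genes tested were, and 79 of 84 in the mutant, where 10.3% were. In the control these were all 37 of complex I, all 4 of complex II, all 8 of complex III, 16 of 18 of complex IV and all 17 of complex V. Cox7a1 (248 of 326 control UMIs in this class) and Cox8b (86 of 118) passed the limit of 100 UMIs only through this class. So did Cox8b in the mutant (139 of 208). The limit thus favoured the direction of these calls. The exceptions in the control were Cox6a1, the widely expressed form of subunit 6a, at 431 CPM in cardiomyocyte-like and 420 CPM in other cells, and Cox4i2, at 8.08 and 10.3 CPM. In the mutant they were Cox6a1, Ndufa7, Ndufa1, Cox6b2 and Ndufa4l2. Among subunits present in every class, Ndufa11, an accessory subunit of complex I, stood at 988 CPM in control cardiomyocyte-like cells against 200 CPM elsewhere, a log2 difference of 2.30, and Atp5b, the catalytic beta subunit of complex V, at 3191 against 944 CPM (1.76).

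The muscle isoforms of complex IV had the largest differences between cardiomyocyte-like and other cells. Cox6a2 (chr7:128205435-128206387, minus strand, GRCm38) stood at 1386 CPM in control cardiomyocyte-like cells and 4.70 CPM in other control cells, a log2 difference of 8.20. Cox7a1 stood at 286 against 1.3 CPM (7.84) and Cox8b at 99.3 against 0.51 CPM (7.59). All 3 were thus at low levels outside this class.

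Within cardiomyocyte-like cells, 2 of the 3 muscle isoforms were lower in the mutant library. Cox6a2 stood at 1386 CPM in the control and 738 CPM in the mutant (log2 −0.91, interval −1.01 to −0.81), and its share of the UMIs of Cox6a1 and Cox6a2 was 76.3% in the control and 62.2% in the mutant. Cox8b stood at 99.3 and 42.8 CPM (−1.22, interval −1.61 to −0.81), with 4.44% and 2.18% of the UMIs of Cox8a and Cox8b. Cox7a1 differed less, at 286 and 262 CPM, with 19.6% and 17.1% of the UMIs of Cox7a1 and Cox7a2. The summed level of the 9 cardiomyocyte markers moved the same way, from 46158 CPM in the control to 31127 CPM in the mutant, while the mesenchyme markers summed to 314 and 108 CPM and the 9 mural and smooth muscle markers, 8 of them with UMIs, to 1566 and 3826 CPM. The part of these markers in the isoform differences was not tested. Outside cardiomyocyte-like cells, these isoforms stood at low levels, and Cox6a2 was highest in branchial muscle-like cells, with 2.21% and 3.27% of Cox6a UMIs. Cox8c had no UMI in either library, and Cox7b2 had 32 control and 24 mutant UMIs in all.

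**Figure D2:**
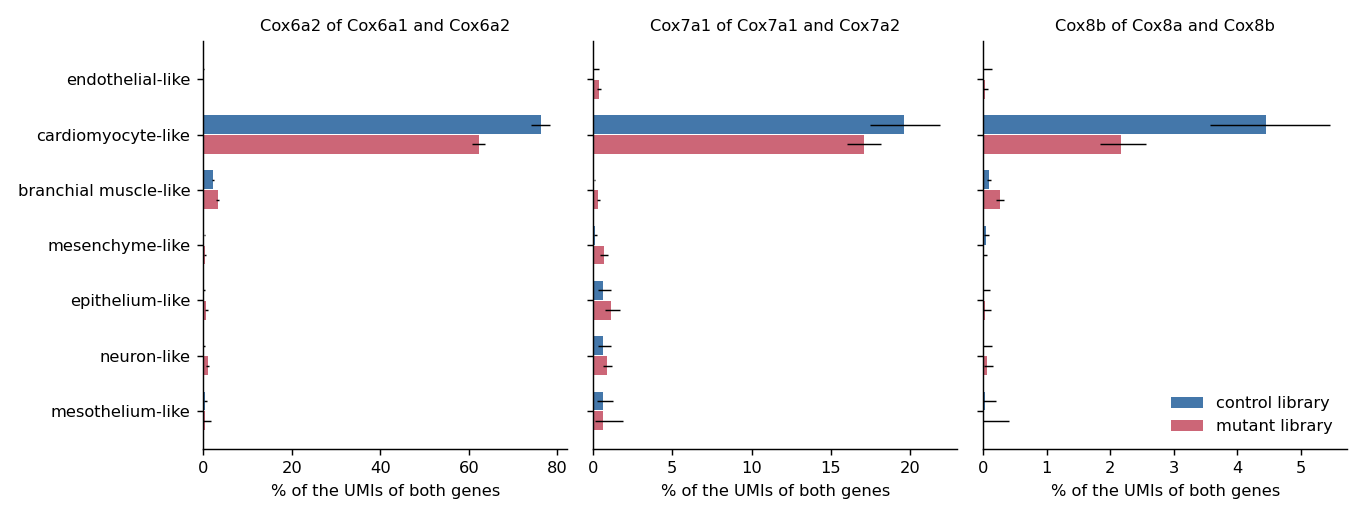
Share of the UMIs of an isoform pair (%, horizontal axis) that came from the muscle isoform, by class and library, with 95% Clopper-Pearson intervals. In cardiomyocyte-like cells Cox6a2 held 76.3% in the control and 62.2% in the mutant, while all other classes lay at or under 3.27%.

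The promoters of Cox7a1 and Cox8b are shown because both genes were far higher in cardiomyocyte-like cells of both libraries. The stretches run from 250 bases before to 50 bases after the gene start, 5′ to 3′ on the gene's strand (RefSeq, GRCm38.p6), with the letters ACGTG and GCGTG, on either strand, in capitals. These are the core letters bound by hypoxia-inducible factors, and a match is a description of the sequence only. Cox7a1 lies at chr7:30183921-30184220 (plus strand) and Cox8b at chr7:140900397-140900696 (minus strand).
Cox7a1: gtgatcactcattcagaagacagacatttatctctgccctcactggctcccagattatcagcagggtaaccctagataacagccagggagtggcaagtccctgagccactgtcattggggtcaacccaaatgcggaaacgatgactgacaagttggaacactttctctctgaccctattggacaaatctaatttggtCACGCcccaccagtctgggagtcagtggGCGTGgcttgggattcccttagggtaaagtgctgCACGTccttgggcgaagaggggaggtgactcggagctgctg
Cox8b: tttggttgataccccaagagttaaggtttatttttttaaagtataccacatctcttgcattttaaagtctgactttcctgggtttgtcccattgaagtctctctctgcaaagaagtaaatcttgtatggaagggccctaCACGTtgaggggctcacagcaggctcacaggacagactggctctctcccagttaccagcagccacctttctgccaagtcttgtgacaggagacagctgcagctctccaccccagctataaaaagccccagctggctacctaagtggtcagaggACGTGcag

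Cardiomyocyte-like barcodes held very little mitochondria-coded RNA. The median barcode of this class had 0.0502% mt- UMIs in the control and 0.0487% in the mutant, against 1.57% and 1.47% in all other barcodes. Under 0.2% mt- UMIs were found in 46 of 54 control barcodes (85.2%) and 150 of 184 mutant barcodes (81.5%), but in only 0.989% and 1.33% of the others. All 13 mitochondria-coded subunits were lower past 1.5-fold in this class than in other cells of either library, in which 51.5% (control) and 63.3% (mutant) of all genes tested were lower too. The same barcodes were low in Malat1, an RNA that stays in the nucleus, with a median of 0.0117% in the control and 0.0246% in the mutant, against 0.35% and 0.416% in the others. Cytosolic ribosomal protein genes took a median of 15.6% and 16% of UMIs, inside the range of the other classes. Sex could not be called from Xist and Y-linked genes in 43 of 54 and 89 of 184 of them. The part of these features in the mitochondria-coded level was not tested.

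**Figure D3:**
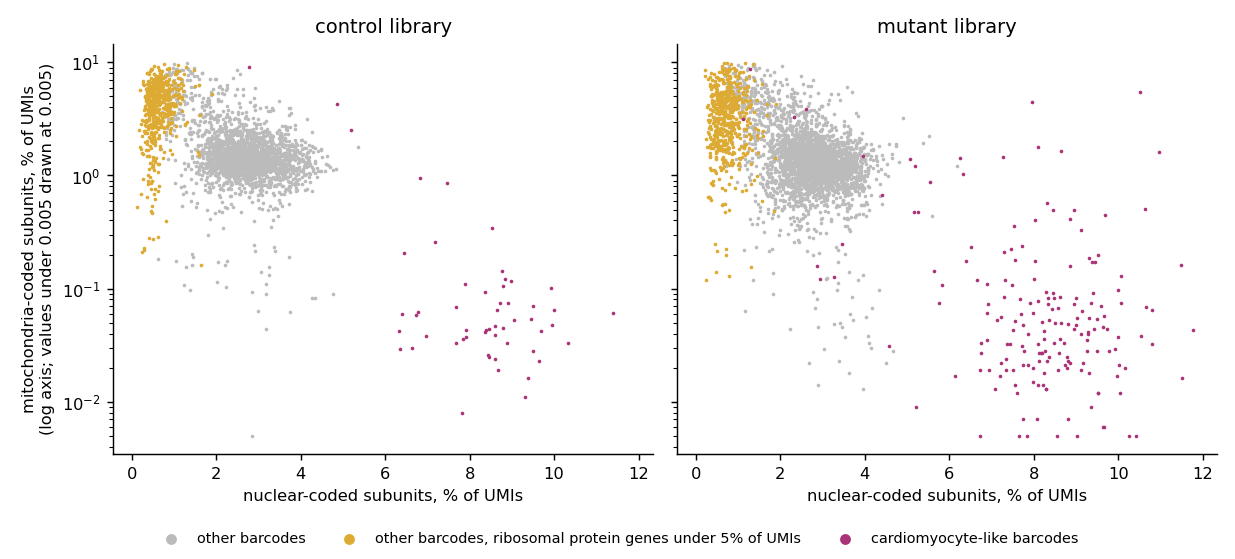
Each point is a barcode: share of UMIs in nuclear-coded subunits (%, horizontal axis) against share in mitochondria-coded subunits (%, vertical log axis, values under 0.005% drawn at 0.005%), for the control and mutant libraries. Cardiomyocyte-like barcodes lie apart at the lower right, with medians of 8.50% and 8.27% nuclear-coded and 0.0502% and 0.0487% mitochondria-coded UMIs.

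The cardiomyocyte-like difference between libraries in mitochondria-coded RNA rested on a few barcodes. The sum was 0.770% of UMIs in the control and 0.329% in the mutant (log2 −1.23), and 10 of the 11 mitochondria-coded genes with enough UMIs were lower past 1.5-fold, where 10.9% of all genes tested were, from mt-Atp8 at −1.67 to mt-Co1 at −0.86. However, 2 of the 54 control barcodes held 70.4% of these UMIs in the control. Both had under 5% of UMIs in ribosomal protein genes, and without all such barcodes the sum was 0.246% in the control and 0.25% in the mutant (log2 0.03). No difference in mitochondria-coded RNA is therefore read from this class. The nuclear-coded sum hardly moved in that comparison, at 8.18% and 8.24%.

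The main comparison asked whether subunits of both genomes differed between mutant and control endothelial-like cells. The nuclear-coded sum was nearly level between the libraries, and the mitochondria-coded sum was lower in the mutant. Nuclear-coded subunits took 2.46% of UMIs in the control (interval 2.44 to 2.48) and 2.52% in the mutant (2.51 to 2.53), a log2 ratio of 0.04. Mitochondria-coded subunits took 2.19% (2.17 to 2.20) and 1.64% (1.63 to 1.64), a log2 ratio of −0.42 (−0.43 to −0.41). There were thus 0.888 mitochondria-coded UMIs for each nuclear-coded one in the control and 0.648 in the mutant.

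All 13 mitochondria-coded genes lay lower in mutant endothelial-like cells, with a median log2 ratio of −0.45 against −0.07 for all 10775 genes tested. Of these 13, 9 were lower past 0.32 (log2), where 25% of all genes were, and none was higher past that fold, where 16.2% were. All 13 are carried by the same mitochondrial DNA, so counts over them, here and below, are not counts of independent genes. The lowest were 3 core subunits of complex I. mt-Nd1 stood at 1907 CPM in the control and 1137 CPM in the mutant (−0.75, interval −0.79 to −0.70), mt-Nd4l at 1413 and 901 CPM (−0.65), and mt-Nd4 at 745 and 484 CPM (−0.62). The reading frames of mt-Nd4l and mt-Nd4 overlap, as do those of mt-Atp8 and mt-Atp6, so the split of UMIs within each pair is uncertain.

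Cytochrome b, the mitochondria-coded subunit of complex III, followed at 2844 and 2081 CPM for mt-Cytb (−0.45), and the 2 ATP synthase subunits were alike, with mt-Atp8 at −0.49 and mt-Atp6 at −0.42. The 3 catalytic core subunits of complex IV differed less. mt-Co1 stood at 4041 and 3490 CPM (−0.21), mt-Co2 at 2883 and 2310 CPM (−0.32) and mt-Co3 at 3280 and 2504 CPM (−0.39). mt-Nd2 (−0.48) and mt-Nd5 (−0.45) lay near the median. The least different were mt-Nd6, the one subunit read from the opposite strand, at 80.6 and 74.1 CPM (−0.12, interval −0.31 to 0.08), and mt-Nd3, at 26.2 and 23.0 CPM (−0.19, interval −0.53 to 0.17), whose intervals include 0.

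**Figure D4:**
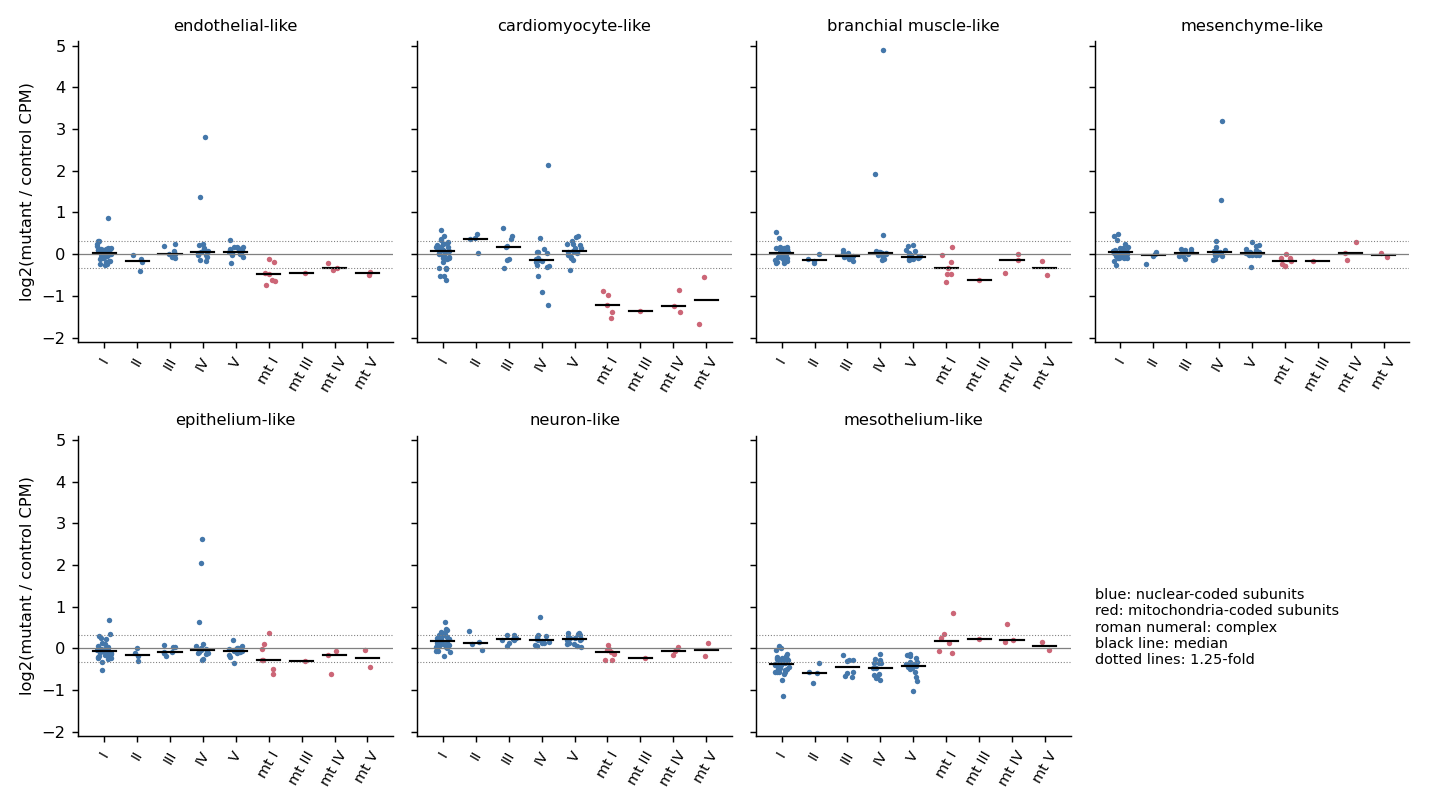
Log2 of mutant over control CPM (vertical axis) for each subunit with at least 100 UMIs, 1 panel per cell class, grouped by complex, with mitochondria-coded groups marked mt. In endothelial-like cells the nuclear-coded groups lie around 0 with Ndufa4l2 at 2.80, and all 13 mitochondria-coded genes lie below 0.

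The endothelial-like difference was also present among barcodes of the same sex. Female-like barcodes had 2.21% mitochondria-coded UMIs in the control (139 barcodes) and 1.72% in the mutant (249 barcodes), and the 403 male-like mutant barcodes had 1.58%. Leaving out barcodes with under 5% of UMIs in ribosomal protein genes gave 1.95% and 1.49% (−0.39). The limit of 10% mt- UMIs cuts off the upper end of these values in both libraries. Within the range of genes per barcode, it left out 46 control and 26 mutant barcodes over all classes.

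The same direction appeared in other classes, with smaller sizes. The mitochondria-coded sum was 1.87% in the control and 1.5% in the mutant in branchial muscle-like cells (−0.32), where 7 of 13 genes were lower past 0.32 (log2) against 15.1% of all genes. In epithelium-like cells it was 2.05% and 1.68% (−0.29), with 4 of 13 lower against 18.6%. Neuron-like cells had 1.69% and 1.55% (−0.12) and mesenchyme-like cells 1.52% and 1.48% (−0.04), and in neither did any of the 13 pass 0.32 (log2) in either direction. Mesothelium-like cells went the other way, with 1.58% and 1.84% (0.23). Without barcodes under 5% ribosomal protein UMIs, that class had 1.56% and 1.54%. Such barcodes made up 23.1% of control and 15.9% of mutant branchial muscle-like barcodes, and without them that class had 1.52% and 1.30%. In the same setting epithelium-like cells had 1.84% and 1.55%, neuron-like cells 1.47% and 1.43%, and mesenchyme-like cells 1.43% and 1.32%.

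The balance within mitochondria-coded RNA differed between the libraries in each class. Complex IV genes made up 45.7% to 47.7% of mitochondria-coded UMIs in the 7 control classes and 48.2% to 50.9% in the 7 mutant classes, so that the ranges did not overlap. Complex I genes made up 25.9% to 29.5% in the control classes and 23.8% to 26.6% in the mutant classes. In every class the log2 ratio of the summed complex I genes was lower than that of complex IV, from −0.61 against −0.30 in endothelial-like cells to −0.35 against −0.25 in epithelium-like cells. mt-Nd1 and mt-Nd4l were below 0 in all 7 classes, whereas mt-Co1 was at −0.21 in endothelial-like and 0.00 in branchial muscle-like cells, and at 0.57 in mesothelium-like and 0.28 in mesenchyme-like cells. These statements include the cardiomyocyte-like class, from which no difference in mitochondria-coded RNA is read. In it, 2 of 54 control barcodes held 70.4% of the mitochondria-coded UMIs, and mt-Nd1 reversed in some alternatives, as given below. The 7 classes of a library share that library's preparation and are not replicates.

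Among nuclear-coded subunits of endothelial-like cells, most complexes were level between the libraries. The summed shares were 0.647% and 0.667% for complex I, 0.238% and 0.245% for complex III, 0.646% and 0.655% for complex IV and 0.874% and 0.907% for complex V, with log2 ratios of 0.02 to 0.05. The median over 81 subunits was 0.04, against −0.07 for all genes. Only 4 were higher past 0.32 (log2) (Ndufa4l2, Cox6b2, Ndufv3 and Atp5md) and 1 was lower (Sdhb), against 16.2% and 25% of all genes. Ndufa4l2 (9 control and 274 mutant UMIs) and Cox6b2 (11 and 125) passed the limit of 100 UMIs only through the mutant library. The limit thus favoured the direction of their calls.

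Among the nuclear-coded sums, only that of complex II was lower in mutant endothelial-like cells, at 0.0553% and 0.0479% (−0.21, interval −0.28 to −0.13). Its iron-sulfur subunit Sdhb stood at 194 CPM in the control and 147 CPM in the mutant (−0.40, interval −0.53 to −0.27). The flavoprotein Sdha stood at 131 and 115 CPM (−0.19, interval −0.34 to −0.03). The membrane anchors differed less, Sdhc at 116 and 107 CPM (−0.12) and Sdhd at 112 and 110 CPM (−0.02), with intervals that include 0. These ratios are on total UMIs. TMM factors differed by −0.11 (log2) in this class and raise each ratio by as much. The sizes thus depend on the scaling, and the difference of Sdha is not read as firm. Sdhb was also lower in epithelium-like (−0.31) and mesothelium-like cells (−0.83), but higher in cardiomyocyte-like cells (561 and 791 CPM, 0.50), in which the complex II sum was 0.178% and 0.221% (0.31).

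In the remaining complexes, the extremes of the endothelial-like cells were modest outside 3 genes. For complex I the highest was Ndufv3 (0.86). For complex III the highest and lowest were Uqcrb, at 375 and 442 CPM (0.24), and the core protein gene Uqcrc1 (−0.08). For complex IV they were Ndufa4l2 (2.80) and the supercomplex factor Cox7a2l, at 202 and 182 CPM (−0.15), and for complex V Atp5md, at 358 and 452 CPM (0.34), and Atp5j, at 573 and 491 CPM (−0.22). Cox6b2, a form of subunit 6b best known from testis, had 11 control and 125 mutant UMIs (1.38, interval 0.49 to 2.42), 0.627% and 1.53% of the UMIs of Cox6b1 and Cox6b2. Of the assembly factors, Ndufaf1 stood at 20.2 and 11.7 CPM (−0.79, interval −1.20 to −0.36).

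Ndufa4l2 (chr10:127514967-127517154, plus strand, GRCm38), a paralog of Ndufa4 and a known target of hypoxia-inducible factor, had the largest ratio of the subunits tested, both in all cells together (2.92) and in endothelial-like cells. In endothelial-like cells it had 9 UMIs in the control and 274 in the mutant, 2.68 and 18.6 CPM (log2 2.80, interval 1.85 to 3.94). The control value rested on few molecules, so the size of the ratio is imprecise while its direction lies outside counting error. Ndufa4l2 also passed the UMI limit in this class only through the mutant library, in which it was high. The libraries also differed in sex, and within female-like barcodes the difference was smaller, as the levels given below show. The ratios of the other classes below take barcodes of all sex calls together.

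It was higher in the mutant in most other classes too. Branchial muscle-like cells had 12 and 296 UMIs, 0.514 and 15.2 CPM (4.89), and mesenchyme-like cells 75 and 368 UMIs, 4.07 and 37.1 CPM (3.19). In both classes Ndufa4l2 passed the limit of 100 UMIs only through the mutant library, so the limit favoured this direction there too. Epithelium-like cells had the highest level of either library, with 103 and 848 UMIs, 25.1 and 154 CPM (2.62, interval 2.32 to 2.92). In that class all 9 mural and smooth muscle markers had UMIs in both libraries, with summed levels of 92.5 and 605 CPM, and the 6 mesothelium markers, 4 and 6 with UMIs, stood at 11 and 78.8 CPM. Other lists went the opposite way, with mesenchyme markers at 530 and 210 CPM and branchial muscle markers at 104 and 39.7 CPM. The epithelium markers of the class itself summed to 2813 and 4282 CPM. Their part in the Ndufa4l2 level was not tested. The mesenchyme-like class differed in make-up, since a cluster led by Adh1, Wnt2 and Slc38a5 was 40.4% of its control and 14.5% of its mutant barcodes, and its mesenchyme markers summed to 7978 and 3949 CPM. Ndufa4l2 was higher in the mutant in that cluster, at 7.22 and 44.5 CPM (2.62), and in the other cluster of the class, led by Angptl1 and Twist1, at 1.24 and 35.2 CPM (4.83). Neuron-like cells had 25 and 83 UMIs (0.75, interval 0.09 to 1.46), and this direction reversed within female-like barcodes. Cardiomyocyte-like cells had 12 and 38 UMIs, 13.9 and 11.7 CPM, and did not differ beyond counting error. Mesothelium-like cells had 0 control UMIs and 30 mutant UMIs (26.3 CPM), too few to pass the limit of 100.

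Set against its paralog, Ndufa4l2 held 0.428% of the UMIs of both genes in control endothelial-like cells and 2.93% in the mutant, and 4.28% and 24.9% in epithelium-like cells. Ndufa4 itself was level in endothelial-like cells, at 622 and 617 CPM (−0.01). At a common depth of 5000 UMIs per barcode, an Ndufa4l2 UMI was found in 0.658% of 152 control and 5.97% of 704 mutant endothelial-like barcodes, and in 3.98% and 31.5% of epithelium-like ones (without thinning 3.23%, 14.5%, 10.8% and 44.6%). In cardiomyocyte-like cells, where the level did not differ, the thinned shares were 3.70% and 4.49%. Of 47 mutant hepatoblast-like barcodes, no thinned barcode had one, which allows up to 7.55%, and 3 had one without thinning (6.38%). The mutant endothelial-like share did not exceed that of mutant cardiomyocyte-like cells beyond counting error and is not read as a share of expressing cells. Median depths were 17243 UMIs in endothelial-like, 15883 in cardiomyocyte-like and 39969 in hepatoblast-like mutant barcodes. The 6 hepatoblast markers summed to 0.771 to 4.63 CPM in the 7 control classes and to 22.0 to 45.7 CPM in the 7 mutant classes. Hepatoblast-like barcodes occurred only in the mutant library. Free RNA in the droplets was not estimated. Ndufa4l2 itself stood at 2.12 CPM in those barcodes, from 4 UMIs. The part of free RNA in its endothelial-like and branchial muscle-like levels was not tested. The 12 epithelium markers summed to 15.5 and 43.3 CPM in endothelial-like cells, against 2813 and 4282 CPM in epithelium-like cells, and their part in the endothelial-like Ndufa4l2 level was not tested. Within endothelial-like cells, Ndufa4l2 stood at 2.58 CPM in female-like control, 6.42 CPM in female-like mutant and 25.8 CPM in male-like mutant barcodes.

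Cox4i2 (chr2:152754173-152765037, plus strand), the low-oxygen form of the complex IV regulatory subunit 4, shared part of this pattern. It stood at 15.6 and 64.9 CPM in epithelium-like cells (2.06, interval 1.67 to 2.46), 3.0 and 11.4 CPM in branchial muscle-like cells (1.92), 22.1 and 54.1 CPM in mesenchyme-like cells (1.29) and 8.08 and 35.7 CPM in cardiomyocyte-like cells (2.14, from 7 and 116 UMIs). In endothelial-like cells it did not differ beyond counting error, at 8.32 and 9.85 CPM (0.24, interval −0.35 to 0.88), nor did it in neuron-like cells (−0.13). These ratios take barcodes of all sex calls together, although the libraries differed in sex. In branchial muscle-like (70 and 221 UMIs), epithelium-like (64 and 358) and cardiomyocyte-like cells, Cox4i2 passed the limit of 100 UMIs only through the mutant library. The limit thus favoured the direction of those calls. The 9 mural and smooth muscle markers were also higher in the mutant in the classes where Cox4i2 was, though by unlike amounts. They summed to 358 and 1003 CPM in mesenchyme-like cells, besides the epithelium-like and cardiomyocyte-like levels given above, to 1251 and 1563 CPM in branchial muscle-like cells, and to 271 and 298 CPM in endothelial-like and 66.5 and 52.7 CPM in neuron-like cells. Their part in the Cox4i2 differences was not tested. Barcodes classed as mural and smooth muscle-like (101 and 43) held Cox4i2 at 7.65 and 4.76 CPM, from 10 and 3 UMIs. Within the mesenchyme-like class, Cox4i2 stood at 8.25 and 57.9 CPM in the cluster led by Angptl1 (2.81) and at 37.5 and 39.6 CPM in the cluster led by Adh1 (0.08). The common form Cox4i1 stayed within 0.2 of 0 on the log2 scale in all classes but mesothelium-like cells (−0.48), and Cox4i2 held at most 6.60% of the UMIs of both forms, in mutant epithelium-like cells.

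**Figure D5:**
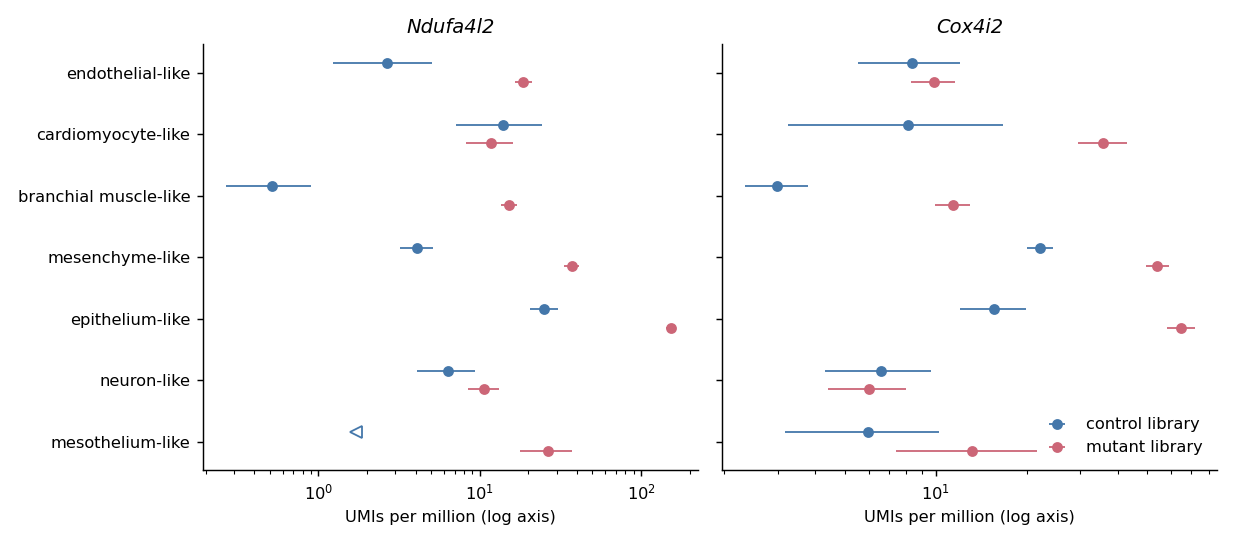
CPM (horizontal log axis) of Ndufa4l2 and Cox4i2 by class in the control and mutant libraries, with 95% exact Poisson intervals, where an open left triangle marks 0 UMIs drawn at the upper bound. Ndufa4l2 reached 154 CPM in mutant epithelium-like cells, and in endothelial-like cells it stood at 2.68 CPM in the control and 18.6 CPM in the mutant.

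Of the abundant subunits, Ndufv3 and Ndufs5, accessory subunits of complex I, were higher in the mutant in most classes. Ndufv3 (chr17:31520115-31531331, plus strand) stood at 117 and 213 CPM in endothelial-like cells (0.86, interval 0.71 to 1.02), 122 and 195 CPM in epithelium-like cells (0.67) and 167 and 240 CPM in branchial muscle-like cells (0.52). It lay above 0 in all 7 classes, lowest in mesothelium-like cells (0.06). Ndufs5 (chr4:123712710-123718202, minus strand) stood at 152 and 235 CPM in neuron-like cells (0.63), 365 and 547 CPM in cardiomyocyte-like cells (0.58) and 151 and 188 CPM in endothelial-like cells (0.32). It was lower only in mesothelium-like cells (−0.36). The values of both genes take barcodes of all sex calls together.

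Their promoters are shown because these 2 genes differed from the other complex I subunits in several classes, with the same window, build and capitals as above. Ndufv3 lies at chr17:31519865-31520164 (plus strand) and held 4 of the marked matches, and Ndufs5 at chr4:123718137-123718436 (minus strand) held none.
Ndufv3: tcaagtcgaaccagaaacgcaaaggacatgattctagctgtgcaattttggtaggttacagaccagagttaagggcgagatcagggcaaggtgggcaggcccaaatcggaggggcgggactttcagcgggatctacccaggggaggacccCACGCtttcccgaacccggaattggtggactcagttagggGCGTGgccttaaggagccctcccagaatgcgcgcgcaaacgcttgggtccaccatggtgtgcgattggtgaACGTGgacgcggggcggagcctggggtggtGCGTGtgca
Ndufs5: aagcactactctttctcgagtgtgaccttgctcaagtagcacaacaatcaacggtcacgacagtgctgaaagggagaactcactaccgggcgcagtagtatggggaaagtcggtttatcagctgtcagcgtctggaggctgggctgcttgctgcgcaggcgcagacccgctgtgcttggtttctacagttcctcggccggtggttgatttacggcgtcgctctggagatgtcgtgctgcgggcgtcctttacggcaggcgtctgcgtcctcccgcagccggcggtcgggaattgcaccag

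Such letters were common. A window of this kind was found for 68 of the 86 nuclear-coded subunits and for 27025 genes in all. ACGTG or its complement was present in 23.5% of the subunit windows and 21.8% of all windows, and GCGTG in 54.4% and 35.2%. GCGCATGCG, core letters of nuclear respiratory factor NRF1, a regulator of respiratory chain genes, was present in 8 subunit windows (Atp5g2, Atp5k, Atp5l, Cox6a1, Ndufa11, Ndufa8, Uqcr11 and Uqcrc1), or 11.8%, against 1.95% of all windows. The related form GCGCACGCG was present in 7.35% against 2.05%, in no window of the first 8. CCGGAAGT, the core letters of the ETS factor GABPA, was present in 7.35% against 4.31%. All were searched on both strands, and the windows were not matched for base composition.

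In neuron-like cells, nuclear-coded subunits were higher in the mutant, and in mesothelium-like cells lower, across all complexes. In neuron-like cells the sum was 2.23% and 2.56% (0.20), 74 of 79 subunits lay above 0, and 15 were higher past 0.32 (log2) with none lower, against 13.8% and 25.5% of all genes. In that class the 12 mesenchyme markers summed to 584 and 72.6 CPM and the 7 neural crest markers to 466 and 114 CPM, all with UMIs in both libraries, and their part in the difference was not tested. In mesothelium-like cells the sum was 3.08% and 2.25% (−0.45), 76 of 78 subunits lay below 0, and 51 were lower past 0.32 (log2) with none higher, against 26.2% and 31.4% of all genes. The lowest there were Ndufa5, at 313 and 143 CPM (−1.13), Atp5g1, at 599 and 297 CPM (−1.01), and Sdhb, at 192 and 108 CPM (−0.83).

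Both differences went with the share of barcodes poor in ribosomal protein UMIs. Barcodes with under 5% made up 36.3% of control and 17.9% of mutant neuron-like barcodes, and 4.29% of control and 31.3% of mutant mesothelium-like barcodes. In all cells they made up 19.1% and 16.4%, and they had 0.686% and 0.796% nuclear-coded but 4.28% and 3.55% mitochondria-coded UMIs, against 2.92%, 3.15%, 1.53% and 1.36% in the rest. Without them, the nuclear-coded sum was 2.66% and 2.77% in neuron-like cells (0.05) and 3.11% and 2.63% in mesothelium-like cells (−0.25, from 67 and 46 barcodes). Across single barcodes the nuclear-coded share ran with the ribosomal protein share outside the cardiomyocyte-like class. The Spearman correlation was 0.83 (control) and 0.67 (mutant) in neuron-like and 0.62 and 0.78 in mesothelium-like barcodes. It was 0.80 over 155 control and 0.73 over 739 mutant endothelial-like barcodes, but 0.20 and 0.04 in cardiomyocyte-like ones. The barcodes share their library, and both shares have the same total as denominator.

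In the other classes the nuclear-coded sum was level, at 3.09% and 3.05% in branchial muscle-like cells (−0.02), 2.34% and 2.40% in mesenchyme-like cells (0.04) and 2.52% and 2.44% in epithelium-like cells (−0.05). Within the mesenchyme-like clusters it was 2.07% and 2.29% in the cluster led by Angptl1 (0.14) and 2.64% and 2.82% in the cluster led by Adh1 (0.10). Past 0.32 (log2), 5 of 82, 5 of 81 and 5 of 81 subunits were higher and 0, 0 and 2 lower, against 19.2%, 18.7% and 14.2% of all genes higher and 15.1%, 15.8% and 18.6% lower. In cardiomyocyte-like cells 14 of 83 were higher and 10 lower, against 24.7% and 21.5%. Beside the isoforms, that class had Ndufa7 lower (715 and 469 CPM, −0.61) and Uqcrc1 higher (411 and 635 CPM, 0.63). The complex I assembly factors Ndufaf6 (25.4 and 68.3 CPM, 1.43, from 22 and 222 UMIs) and Ndufaf4 (73.9 and 134 CPM, 0.86) were also higher there. Both passed the UMI limit in this class only through the mutant library.

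The 3 X-linked subunits did not stand apart, although the libraries differed in sex. In endothelial-like cells Ndufa1 stood at 128 and 134 CPM (0.06), Ndufb11 at 237 and 257 CPM (0.12) and Cox7b at 342 and 377 CPM (0.14). Ndufa1 stood at 145 CPM in female-like and 124 CPM in male-like mutant barcodes of this class. The 3 genes for the c subunit of complex V, which encode the same mature protein, kept their proportions in endothelial-like cells, Atp5g3 with 50.6% and 49.5%, Atp5g2 with 32.2% and 33.7% and Atp5g1 with 17.2% and 16.7%.

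Other genes of the pathway were compared in endothelial-like cells from 13 lists. Glycolysis genes stood apart from the subunits: 15 of 16 were higher past 0.32 (log2) and none lower, against 16.2% and 25% of all genes, with a median of 1.45, for example Pgk1 at 216 and 915 CPM (2.08) and Ldha, which makes lactate, at 629 and 1800 CPM (1.52). Higd1a, a hypoxia-induced protein that binds complexes III and IV, stood at 119 and 332 CPM (1.48), and it was higher in all 7 classes, from 1.09 in mesothelium-like to 1.82 in mesenchyme-like cells. The mitochondrial protease Lonp1 stood at 36.3 and 55.0 CPM (0.60). Cytochrome c, the carrier between complexes III and IV, was higher (Cycs, 77.3 and 101 CPM, 0.38), whereas cytochrome c1, its partner in complex III, was lower (Cyc1, 202 and 166 CPM, −0.29).

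Genes that make or handle mitochondrial RNA had medians slightly below 0, near the median of all genes given above, which was also below 0. Regulators of mitochondrial biogenesis had a lower one. Of 12 genes for transcription and copying of mitochondrial DNA, 1 was higher and 1 lower past 0.32 (log2) (median −0.16), and the transcription factor Tfam stood at 38.3 and 32.8 CPM (−0.23, interval −0.51 to 0.06). Of 11 genes that process mitochondrial RNA, 3 were lower and none higher (−0.13), near the 25% of all genes that were lower. Among 8 regulators of mitochondrial biogenesis, 3 were lower and none higher (−0.31), with the coactivators Ppargc1b at a log2 ratio of −1.14 (interval −1.49 to −0.77) and Pprc1 at 55.6 and 33.4 CPM (−0.73). Of 14 TCA cycle genes, 1 was lower and none higher (−0.09), and of 78 mitochondrial ribosome genes, 3 were higher and 5 lower (−0.03), against 16.2% and 25% of all genes. In mesothelium-like cells the TCA cycle genes (median −0.43, 10 of 14 lower past 0.32 (log2)) and the mitochondrial ribosome genes (−0.38, 40 of 72), where 26.2% of all genes were lower, had medians below 0 like the subunits.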

How the data were processed

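Per the labels, 5′ single-cell libraries were made from eYFP-sorted cells, 1 per genotype, and the authors aligned the reads to mm10 with Cell Ranger 7.1.0. The deposited counts are raw UMI counts per gene and barcode, without normalization. The annotation release and the counting of intronic reads are not given in the sources used here. Members with near-identical copies elsewhere, such as Ndufb4 and Ndufs5, may lose reads in counting and are uncertain.

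Barcodes with over 2000 but under 9000 genes and mt- UMIs under 10% were kept, as in the study's methods. They were integrated and clustered with Seurat 5.3.0 (R 4.3.3) on 2000 variable genes, with 20 neighbours over 30 components, and 15 clusters were reached first at a resolution of 0.28. The members, pathway genes and other mitochondrial genes, 299 in all, were kept out of clustering. Clusters were named X-like from marker lists, and named classes with at least 50 barcodes in both libraries, 7 in all, were compared. A cluster of 174 control and 176 mutant barcodes, with both macrophage and erythroid markers, was left unnamed and not compared. Its barcodes remain in the values for all cells and for other cells. Doublets were kept, because Scrublet (scanpy 1.11.5) marked 0 control and 1 mutant barcode by its own threshold. Removing the 162 and 230 highest scores was an alternative. Coordinates are those of GENCODE M21 on GRCm38.

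For each library, the UMIs of a gene were added up within a class and set against all UMIs of that class. CPM values have exact Poisson intervals, log2 ratios conditional exact binomial intervals, and shares of cells or isoforms Clopper-Pearson intervals, all at 95%. Genes with at least 100 UMIs over both libraries in a class were counted past a log2 ratio of 0.32 or past 1.5-fold, by size alone. A gene could thus pass the limit through the library in which it was high. For a class against other cells, the limit applied within a library, and a gene could pass it through that class. A count of 0 allows up to 3 UMIs. The ratio calculation was run on simulated endothelial-like sums of 10779 genes with 200 changed, drawn with counting error only. Of the intervals of changed genes, 96.5% held the true value, near the 95% that such a setting fixes in advance. This checks the calculation alone, because the simulation held no spread between barcodes, embryos or libraries. The genes named are members past 1.5-fold in a class, the highest and lowest member of each complex in endothelial-like cells, isoform pairs, all mitochondria-coded, X-linked and Sdh genes, and members past 1.5-fold in cardiomyocyte-like over other cells. Not every gene that this rule names is reported here. Sdhb and Cox4i1 in other classes, and pathway genes under 1.5-fold, are examples. Members and lists were chosen with earlier results of these data known.

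Alternatives changed the scaling (edgeR 4.0.16 TMM factors, the median of gene ratios over a minimum of 50 UMIs, totals without mitochondria-coded genes), the UMI minimum (1, 20 or 500), the mt- limit (5% or 20%), thinning to 5000 UMIs, the mean over barcodes of UMIs per 10000, female-like barcodes, the classes, the doublets, and the place of the assembly factors. The alternatives that keep barcodes with at least 5% of UMIs in 84 ribosomal protein genes, or at least 0.2% mt- UMIs, were chosen after seeing the data. Female-like barcodes held Xist and lacked UMIs of the Y-linked genes Eif2s3y, Kdm5d, Uty and Ddx3y. Sums and intervals used pandas 2.3.3 and scipy 1.17.1 with numpy 2.4.6, and plots matplotlib 3.10.9, all in Python 3.11.15.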

Additional observations from a re-analysis of the deposited data

Results flagged for a closer look

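Classes pointed in opposite directions in 2 measures, and neither difference between classes was tested, because each class has 1 library per genotype. The summed complex IV mitochondria-coded genes had a log2 ratio of −1.14 in cardiomyocyte-like cells and 0.35 in mesothelium-like cells. The cardiomyocyte-like value rests on few barcodes, as given above. Uqcrc1, a core protein of complex III, had a log2 ratio of 0.63 in cardiomyocyte-like cells (411 and 635 CPM) and −0.69 in mesothelium-like cells (200 and 124 CPM), where nearly all nuclear-coded subunits were lower.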

How the results depend on the processing

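No paired analysis was possible because there was 1 library per genotype, and for the same reason no replicate could be left out. In endothelial-like cells the nuclear-coded sum had a log2 ratio of 0.04, with 0.13 under median-ratio scaling, 0.10 in female-like barcodes, 0.0246 with mt- UMIs under 5%, 0.0032 with classes from marker counts, 0.0072 with ribosomal protein UMIs at 5% or more and −0.0077 as a mean over barcodes. It thus has no firm direction. The mitochondria-coded sum (−0.42) stayed below 0 in all alternatives run for sums, with −0.32 under median-ratio scaling, −0.26 as a mean over barcodes, −0.36 in female-like barcodes, −0.46 with mt- UMIs under 5%, −0.40 with marker classes, −0.44 without high doublet scores and −0.39 with ribosomal protein UMIs at 5% or more. The mt- limit of 20%, thinning and the finer clustering were not run for sums. TMM factors differed by −0.11 (log2) in endothelial-like cells, which raises every ratio there by as much. Members past 0.32 (log2) in that class numbered 17 of 102, with 13 to 20 over the alternatives, and pathway genes 40, with 40 to 44. Of all genes, 16.2% were higher and 25% lower in the main setting. These shares were not counted in the alternatives, and the number of pathway genes tested is not given here.

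In cardiomyocyte-like cells the nuclear-coded share was 7.84% in the control, with 8.18% as a mean over barcodes, 7.90% of totals without mitochondria-coded genes, 8.09% with mt- UMIs under 5%, 8.18% with ribosomal protein UMIs at 5% or more and 5.40% in the 8 barcodes with mt- UMIs at 0.2% or more. In the mutant it was 8.09%, with 8.05% as a mean, 8.01% with marker classes, 8.24% with ribosomal protein UMIs at 5% or more and 6.61% in the 34 barcodes with mt- UMIs at 0.2% or more. The mitochondria-coded log2 ratio of this class reversed, from −1.23 to 0.16 without high doublet scores and 0.0252 with ribosomal protein UMIs at 5% or more. In these settings the single genes reversed to 0.21 (mt-Atp8), 0.25 and 0.31 (mt-Co1), 0.29 and 0.0739 (mt-Co2), 0.16 and 0.0092 (mt-Nd1), 0.25 (mt-Nd2, first only), 0.60 and 0.44 (mt-Nd4, also 0.13 in thinned barcodes) and 0.0888 (mt-Nd5, second only). Other reversals were Cox8b in all cells (−0.0284 thinned) and Ndufa4l2 in neuron-like cells (−0.80 in female-like barcodes, −0.056 with marker classes). Of the single-gene ratios checked over all classes, 33 left the interval of the main setting in female-like barcodes, 1 reversed and 27 stayed within it.

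The count of members past 0.32 (log2) in neuron-like cells depended most on the setting. It was 16, with 38 under TMM, 25 under median-ratio scaling, 41 as a mean over barcodes, 47 thinned, 10 in female-like barcodes and 3 with ribosomal protein UMIs at 5% or more. In the main setting 13.8% of all genes were higher and 25.5% lower in that class. Shares over all genes were not counted in the alternatives, and those of the other classes are given above. In mesothelium-like cells 54 became 32 in the last setting, in mesenchyme-like cells 6 became up to 12, in epithelium-like cells 9 remained at a minimum of 500 UMIs, and in all cells 12 became 21 when thinned. Depth limits the genes under 100 UMIs, such as Cox7b2 and, outside muscle, Cox8b, and the 54 control cardiomyocyte-like barcodes. The cause of these shifts was not tested.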

Other observations

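Mitochondrial genes beyond the subunits were higher in mutant than control cardiomyocyte-like cells more often than lower. Of 14 TCA cycle genes, 7 were higher past a log2 ratio of 0.32 and 2 lower (median log2 ratio 0.28), against 24.7% and 21.5% of all genes. Of 78 mitochondrial ribosome genes, 28 were higher and 5 lower (0.24), and 5 of the 8 complex I assembly factors were higher and 1 lower (0.40). Biogenesis regulators did not share this direction, with 2 of 5 lower and none higher.

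The c subunit genes of complex V had other proportions in cardiomyocyte-like cells than in the other classes. Atp5g2 held 17.7% of their UMIs in the control and 13.4% in the mutant, against 26.4% to 37.7% in the other classes of both libraries. Atp5g1 held 26.3% and 25.3%, against 15.8% to 21.4% elsewhere.

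A small number of barcodes outside the cardiomyocyte-like class also had under 0.2% mt- UMIs, 27 in the control and 44 in the mutant. Their nuclear-coded share was 2.89% and 3.16%, near that of the other barcodes (2.65% and 2.71%), and their median Malat1 share was 0.0691% and 0.0856%, against 0.352% and 0.419%.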
